A study of Homo sapiens with 8 samples.

Results

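The AP-1 and EGR immediate early factors are 10 genes, taken by symbol from the 23346 genes of a count table of the brain endothelial line hCMEC/D3. They comprise the Fos family (FOS, FOSB, FOSL1 and FOSL2), the Jun family (JUN, JUNB and JUND) and 3 EGR genes (EGR1, EGR2 and EGR3). All 10 were in the table, and 8 of them were detected, that is, at 1 CPM (counts scaled to the size of the library) or more in all 8 libraries. EGR2 and EGR3 were not. The set was selected on measured values, since FOS, FOSB and EGR1 had been seen to vary strongly in CPM between these same replicates, so the spread between replicates is given as a description and supports nothing.

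hCMEC/D3 is an immortalised human brain microvascular endothelial line grown as a model of the blood-brain barrier. Poly(A) RNA of 8 replicates of this 1 line was sequenced, with no treatment, time point or genotype in the labels, so there was 1 group and no contrast between conditions. Whether the replicates were separate cultures was not stated, and any p-value over them measures only the spread between these libraries, which may be technical. The labels used here say nothing of serum, confluence or the handling of cells before lysis.

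Immediate early genes are transcribed within minutes of a stimulus such as serum, stress or shear, without new protein synthesis, and their mRNAs decay fast. MAP kinases act on ternary complex factors of the ELK family, which partner the serum response factor SRF at CArG boxes in front of several of these genes. Fos and Jun proteins pair through leucine zippers to form the AP-1 factor, in which Jun proteins can also pair with each other while Fos proteins need a partner. EGR proteins are zinc finger factors that bind GC-rich sites and are held back by the NAB corepressors. In endothelium both families are known for their response to flow, growth factors and injury.

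Libraries held from 69388544 to 90205244 counts. Every count was even, so errors of counting were computed on halved counts, here called read pairs. All 10 endothelial markers were detected, among them MCAM at 1096 ± 57.1 CPM and CDH5 at 649 ± 152 CPM (SD, n = 8). CLDN5, a tight junction claudin, was above the variation trend described below (edgeR adjusted p = 0.000736), with 237 and 252 CPM in replicates 2 and 8 and 71.5 to 94.7 CPM in the others. The astrocyte markers were all below detection (0 of 6), with a summed level of 0.820 to 1.19 CPM. Detected were 4 of 7 mural, 3 of 7 epithelial, 3 of 6 neuronal and 1 of 6 leukocyte markers, with summed levels of 45.4 to 70.5, 318 to 511, 97.2 to 135 and 47.0 to 85.0 CPM. KRT18 (358 ± 74.0 CPM), MAP2, TUBB3 and CD68 carried most of the last 3 sums, whereas EPCAM, RBFOX3 and PTPRC were below detection. Their part in the results below was not tested.

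Libraries also differed in how levels followed transcript length. A length slope was computed for each library without the 10 members, by regressing its log2 deviations from gene means on the log2 of transcript length. It was 0.14 to 0.15 per doubling of length in replicates 1, 3, 4 and 6 and 0.09 in replicate 5. It was -0.11 in replicate 7, -0.23 in replicate 2 and -0.34 in replicate 8. In those last 3 libraries long transcripts were lower relative to short ones. Replicates 2, 7 and 8 also had the highest total counts. Because of this, each member is given on CPM and on the authors' CQN values, which are on a log2 scale and correct for the length and GC content of genes within each library.

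FOS encodes the founding Fos protein and is a classical serum-induced gene. It lies on chromosome 14 (GRCh37, 75745481 to 75748937, plus strand, 4 exons) and overlaps no other gene of the GENCODE annotation. Its level ran from 2.77 CPM in replicate 8 over a median of 33.2 to 80.8 CPM in replicate 4. Replicates 1, 3, 4 and 6 lay between 49.1 and 80.8 CPM, and replicates 2, 5, 7 and 8 lay at 17.2, 14.5, 9.06 and 2.77 CPM. The highest value was 29.2 times the lowest; without replicate 8 the log2 range fell from 4.82 to 3.14. Replicate 8 still held 117 read pairs of FOS, which gives a 95% exact Poisson interval of 2.29 to 3.32 CPM for counting error alone. Replicate 5, with FOS at 14.5 CPM, had a length slope of 0.09, the lowest of the positive slopes.

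EGR1, the main EGR factor of endothelial cells, lies on chromosome 5 (137801181 to 137805004, plus strand, 2 exons) and also overlaps no other gene. It ran from 20.1 CPM in replicate 8 over a median of 101 to 222 CPM in replicate 4, an 11.1-fold range, or 3.46 on the log2 scale and 2.65 without replicate 8. Replicates 3 and 4 stood at the top for both FOS and EGR1 (204 and 222 CPM for EGR1), and replicates 7 and 8 stood at the bottom for both. They differed in replicate 2, where EGR1 was at 98.6 CPM, close to its median, while FOS was at 17.2 CPM.

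FOSB, a Fos protein that also exists as a truncated splice form, lies on chromosome 19 (45971253 to 45978437, plus strand, 4 exons). In the GENCODE annotation ERCC1 overlaps it on the opposite strand, but no gene as listed in the count table does. The library kit does not mark strand, so reads of overlapping genes on opposite strands cannot be told apart. FOSB ran from 3.41 CPM in replicate 8 over a median of 21.2 to 82.3 CPM in replicate 6, a 24.2-fold range, or 4.55 on the log2 scale and 3.05 without replicate 8. Replicate 6 was followed by replicate 4 at 47.0 and replicate 7 at 32.2 CPM, and replicate 1, which was high for FOS, had only 9.86 CPM of FOSB. Replicate 8 was thus the lowest library for FOS, EGR1 and FOSB alike, whereas the highest library was not shared by FOSB.

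Promoter sequences of all 10 members were searched after their values were seen. Any link of the matches to the spread between libraries was not tested. The 400 bases before the 5′-most start of each gene were searched for the CArG box, the site of SRF (CC, 6 bases of A or T, GG), which was found in 4 of the 10 members (FOS, FOSB, EGR1 and EGR3) and in 1.92% of the 21439 promoters of genes in the table. The stretches around the boxes follow, from GRCh37 and on the strand of the gene, with the CArG boxes in capitals; they are shown because FOS, EGR1 and FOSB are the detected members that differed most between libraries.
FOS, chr14:75745187-75745256, plus strand: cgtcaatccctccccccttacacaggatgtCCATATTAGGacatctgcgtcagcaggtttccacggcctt
FOSB, chr19:45970950-45971019, plus strand: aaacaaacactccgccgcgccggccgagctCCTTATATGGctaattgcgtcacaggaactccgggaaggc
EGR1, chr5:137800768-137800843, plus strand: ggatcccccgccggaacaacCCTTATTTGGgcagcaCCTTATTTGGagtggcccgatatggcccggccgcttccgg
EGR1, chr5:137801033-137801124, plus strand: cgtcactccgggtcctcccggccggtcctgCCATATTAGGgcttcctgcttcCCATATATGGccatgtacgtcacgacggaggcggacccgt
The core of the FOS box, CCATATTAGG, recurs letter for letter in the nearer EGR1 stretch. EGR1 held 4 boxes and FOS, FOSB and EGR3 held 1 each. EGR2 held none before its listed start, but 2 before the start of its canonical transcript, which lies inside the listed gene. JUN, JUNB, JUND, FOSL1 and FOSL2 held none in this window.

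Other motifs were searched in the same windows of the 10 members, with the share of all promoters given in brackets. The cyclic AMP response element TGACGTCA stood before FOSB and JUND (2.18% of all promoters), and the AP-1 site TGANTCA stood before none of the members (8.13%). The EGR site GCGNGGGCG, searched on both strands, occurred before FOSB, JUND and EGR1 (11.8%); the other 3 motifs read the same on both strands. Each of the 3 JUND matches to it overlaps the next. A match is a description of these letters, not of binding.

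The mRNAs differed in AU-rich elements, the ATTTA motifs of the 3′ UTR through which such messages are degraded. FOS had 5 of them in an 806-base 3′ UTR, or 6.20 per 1000 bases, against a median of 1.56 per 1000 bases over 18546 coding genes. JUNB had 4.00 per 1000 bases and the other members had 0.818 (EGR1) to 2.34 (JUN). The densest 30 bases of FOS, in its last exon at chr14:75748754-75748783, are shown because they hold 2 overlapping motifs, in capitals: gttttattgtgtttttaATTTATTTAttaa. EGR1 had the lowest density of the 10. Any link of these motifs to the spread between libraries was not tested.

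FOSL1 and FOSL2 code for Fos proteins without the strong activation domain of FOS and are induced later. FOSL1 (chromosome 11, 65659692 to 65667997, minus strand, 4 exons) ran from 47.2 CPM in replicate 1 over a median of 70.3 to 97.4 CPM in replicate 5. FOSL2 (chromosome 2, 28615779 to 28637516, plus strand, 4 exons) ran from 70.9 CPM in replicate 8 over a median of 134 to 177 CPM in replicate 6. The pair differed in where they were high and low: FOSL1 was high in replicates 5 and 7, where FOS was at 14.5 and 9.06 CPM, whereas FOSL2 was lowest where FOS was lowest. In the GENCODE annotation FOSL2 overlaps FOSL2-AS1 on the opposite strand and another lncRNA on its own, but no gene as listed in the count table overlaps it.

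The Jun genes have 1 exon each. JUN (chromosome 1, 59246463 to 59249785, minus strand), the Jun protein with the strongest link to proliferation, ran from 210 CPM in replicate 8 over a median of 317 to 418 CPM in replicate 4, a 1.99-fold range. JUNB (chromosome 19, 12902310 to 12904125, plus strand), often an antagonist of JUN, ran from 44.3 CPM in replicate 1 over a median of 61.2 to 83.4 CPM in replicate 6. In the GENCODE annotation JUNB is overlapped by HOOK2 on the opposite strand, but no gene as listed in the count table overlaps it. JUND (chromosome 19, 18390563 to 18392432, minus strand), the Jun gene that is on in resting cells, ran from 77.7 CPM in replicate 3 over a median of 94.6 to 178 CPM in replicate 8. Only JUND was highest in the library in which FOS, FOSB, FOSL2, JUN and EGR1 were lowest.

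EGR2 and EGR3 were near the floor of these libraries. EGR2 (chromosome 10, 64571756 to 64578927, minus strand, 2 exons) ran from 0.142 CPM in replicate 8 over a median of 0.513 to 0.868 CPM in replicate 6, or 6 to 31 read pairs. EGR3 (chromosome 8, 22545174 to 22550815, minus strand, 2 exons) ran from 0.0237 CPM in replicate 8 over a median of 0.414 to 1.12 CPM in replicate 6. Replicate 6 had 40 read pairs of EGR3 and replicate 8 had 1, a ratio of 47.3 with a 95% exact interval of 8.02 to 1916 for counting error. The EGR2 ratio between the same libraries was 6.12 (2.51 to 17.9). On CQN values the range was 7.55-fold for EGR3 and 4.46-fold for EGR2. There EGR3 was lowest in replicate 2 (-2.55), with -2.21 in replicate 8. Each of the pair overlaps 1 annotated lncRNA.

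**Figure D1:**
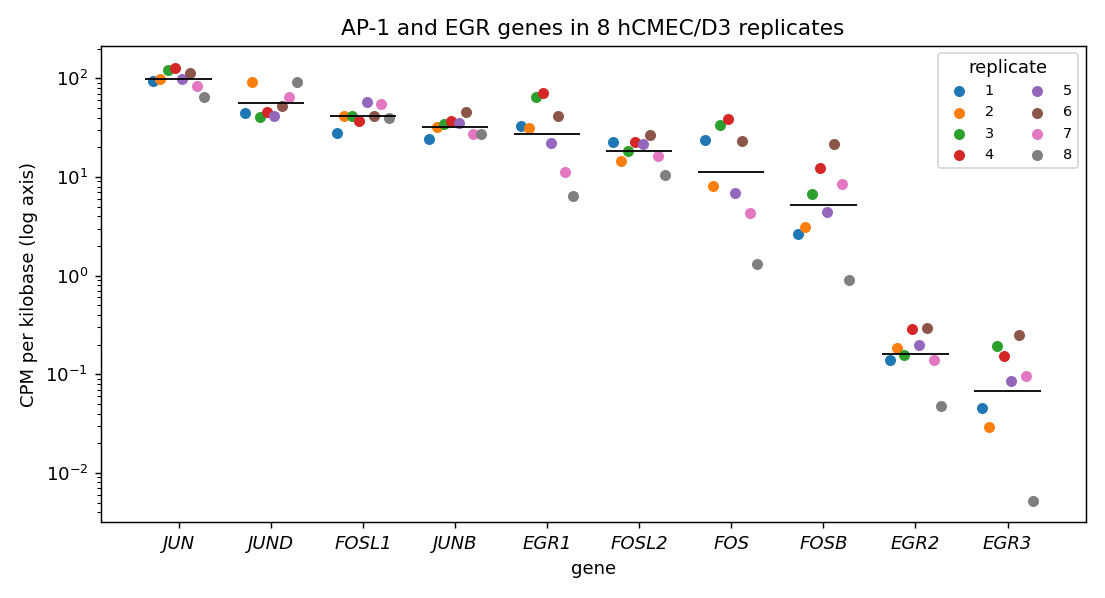
Level of each gene per kilobase of transcript (CPM per kilobase, log axis) in the 8 replicates; points are replicates by colour and the black line is the geometric mean. JUN is the highest gene in 7 of 8 libraries, EGR2 and EGR3 lie below all others, and the points of FOS, FOSB and EGR1 are the most scattered among the detected genes.

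Levels of different genes were compared on CPM per kilobase of the canonical transcript. For FOSL2 that transcript (6713 bases) ends at 28640184, past the listed gene end of 28637516. Reads past the listed end may not have been counted, so the level of FOSL2 per kilobase may be too low. JUN led with 99.9 ± 20.8 CPM per kilobase (SD, n = 8), followed in order of mean log2 level by JUND (59.1 ± 21.6), FOSL1 (42.5 ± 9.37), JUNB (32.9 ± 6.82), EGR1 (35.3 ± 23.3), FOSL2 (19.0 ± 5.10), FOS (17.5 ± 14.2), FOSB (7.58 ± 6.83), EGR2 (0.181 ± 0.0807) and EGR3 (0.107 ± 0.0844). JUN was the highest member in 7 libraries and JUND in 1, replicate 8. Of the 9 pairs of neighbours in this order, 0 differed at an adjusted p under 0.05 by exact permutation of the signs of the 8 within-library log2 ratios (two-sided), and 4 had an unadjusted p under 0.05. With 8 libraries the smallest p this test can give is 0.00781, which becomes 0.0703 when 1 pair of 9 reaches it.

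FOSB exceeded EGR2 in 8 of 8 libraries, by 4.30 ± 1.04 on the log2 scale (exact p = 0.00781, adjusted p = 0.0703). EGR2 was near the floor, at 0.0476 to 0.291 CPM per kilobase, so the size of this ratio depends on the pseudocount of 0.1. It was 2.48 with a pseudocount of 1 and 5.19 on CQN values. JUN exceeded JUND in 7 of 8 (0.80 ± 0.74, exact p = 0.0391, adjusted p = 0.0879). FOSL1 exceeded JUNB in 6 of 8 (0.36 ± 0.38, exact p = 0.0313, adjusted p = 0.0879). JUNB and EGR1 stood in either order, with EGR1 lower in 5 of 8 libraries (0.23 ± 1.06, exact p = 0.578, adjusted p = 0.578). The place of JUND depended on the scale: on the CQN values JUN did not exceed it, with a mean log2 ratio of JUN to JUND of -0.0022 (exact sign-flip permutation test, adjusted p = 0.992).

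Shares within families were taken per kilobase. The canonical transcript of FOSL2 runs past its listed gene, so its share may be too low and those of the other Fos genes too high. As shares of the summed CPM per kilobase of the 4 Fos genes, FOSL1 held 51.7% ± 16.5, FOSL2 22.0% ± 3.47, FOS 18.5% ± 13.4 and FOSB 7.79% ± 5.68 (SD, n = 8). FOS ranged from 2.50% of this pool in replicate 8 to 34.8% in replicate 4, and FOSL1 from 33.6% in replicate 4 to 75.7% in replicate 8. In the Jun pool JUN held 52.1% ± 9.26, JUND 30.8% ± 10.7 and JUNB 17.1% ± 2.61. FOS exceeded FOSL1 in replicate 4 and JUND exceeded JUN in replicate 8. On CQN values the mean of FOSL2 (7.44) was above that of FOSL1 (7.27), and JUND and JUN were level (both 8.99). The summed level ranged 2.14-fold between libraries for the Fos genes, 1.35-fold for the Jun genes and 11.1-fold for the EGR genes, of which EGR1 was 99.0% ± 0.529.

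**Figure D2:**
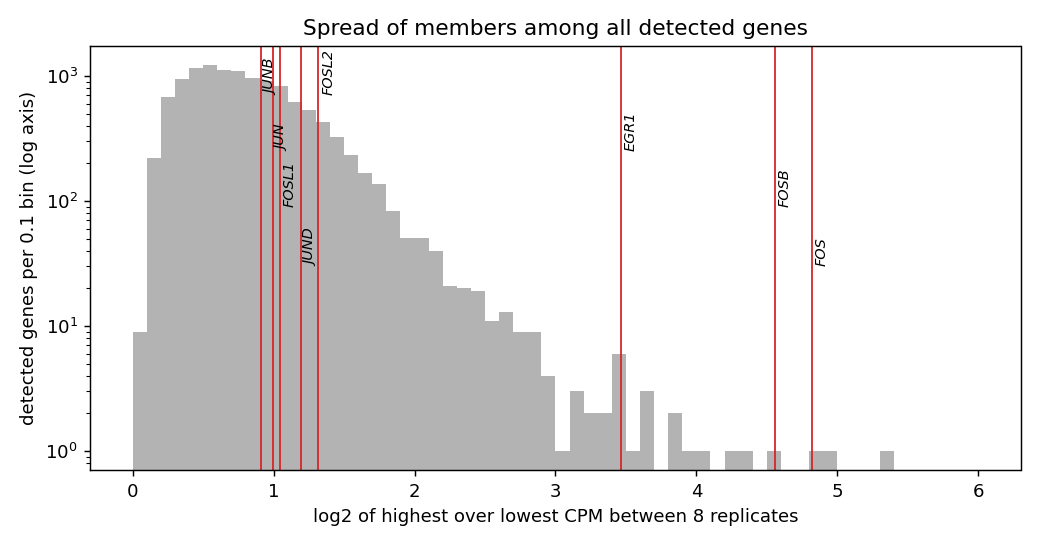
Histogram of the log2 ratio of highest to lowest CPM, each plus 0.1, between the 8 replicates for the 11980 detected genes (log vertical axis), with red lines at the 8 detected members. FOS, FOSB and EGR1 lie at 4.82, 4.55 and 3.46, and the other 5 lie between 0.91 and 1.32, inside the bulk of genes.

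Set against all genes, the spread of the members fell into a wide and a narrow set. The median detected gene had a 1.69-fold range of CPM. FOS, FOSB and EGR1 exceeded 4-fold, 3 of 8 detected members, as did 1.88% of detected genes. Their log2 ranges exceeded those of 99.98%, 99.97% and 99.86% of the 11980 detected genes. The same 3 were above the variation trend in edgeR's goodness-of-fit test (edgeR adjusted p = 9.86e-21, 3.49e-16 and 3.92e-10), as were 4.66% of all genes. Since this spread is why the 3 were listed, no meaning is taken from these counts. Of the other 5, JUND had an unadjusted p of 0.0337 and an adjusted p of 0.296 in edgeR's test, and 13.1% of all genes had an unadjusted p under 0.05. Just outside the set of 3, FOSL2 had a 2.49-fold range.

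A range over fewer libraries can only be equal or smaller. In the 5 libraries with a positive length slope, where the median detected gene had a 1.19-fold range, FOS ran from 14.5 to 80.8 CPM (5.56-fold), FOSB from 9.86 to 82.3 CPM (8.34-fold) and EGR1 from 69.4 to 222 CPM (3.20-fold). JUN, FOSL2 and JUND ran over 1.36-fold, 1.43-fold and 1.31-fold. FOSL1 and JUNB kept their full ranges of 2.06-fold and 1.88-fold. In edgeR's test on those 5 libraries, FOSL1 (adjusted p = 1.26e-07) and JUNB (adjusted p = 1.97e-05) were also above the trend, next to FOS, FOSB and EGR1. That is 5 of 8 members, against 2.42% of 12275 genes. This fit was chosen after seeing the data, and its trend was refitted on these libraries. FOS, FOSB and EGR1 were listed for their spread, so no meaning is taken from this count or these p-values.

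**Figure D3:**
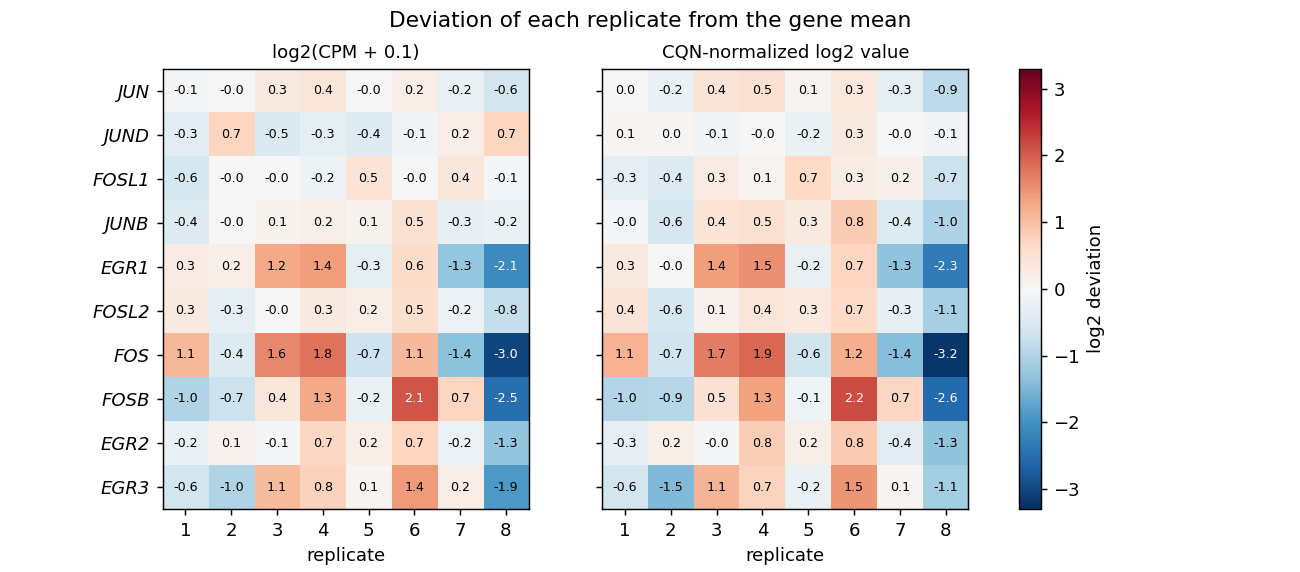
Deviation of each replicate from the gene mean, in log2 units, on log2(CPM + 0.1) (left) and on the authors' CQN values (right), for the 10 genes in the order of their level; red is above and blue below the mean. Replicate 8 is the bluest column on both scales, the row of JUND is more coloured on the left, and the row of JUNB is more coloured on the right.

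On the CQN values FOS, FOSB and EGR1 had wider ranges than on CPM. Their ranges were 34.1-fold, 26.5-fold and 14.1-fold, where the median detected gene had 1.37-fold and 1% of detected genes reached 4-fold. JUND narrowed from 2.29-fold on CPM to 1.44-fold. JUNB went the other way, from 1.88-fold to 3.60-fold, as did FOSL2 (3.36-fold), FOSL1 and JUN (both 2.58-fold). Replicate 8 was lowest for 7 of the 8 detected members on CQN values, all but JUND, and for 23.5% of all detected genes. On CPM it was lowest for 5 of 8 members and 31.1% of genes.

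Each detected member was then related to the length slope of the libraries, of which replicates 1, 3, 4 and 6 share nearly 1 value. Over the 8 libraries 5 of 8 detected members had an adjusted p under 0.05 in an exact permutation test of Pearson's r, adjusted over all 11980 genes, compared with 68.4% of all genes. The members' share was thus near the background. Rising were 4 of 8 members and 31.6% of genes, and falling were 1 of 8 and 36.8%. On Pearson's r, FOS rose with the slope (r = 0.88, exact p = 0.00528, adjusted p = 0.0105; Spearman's rho = 0.76, exact p = 0.0368, adjusted p = 0.0752). Leaving out replicates 2 and 8, the 2 libraries with slopes farthest from the median, gave r = 0.87. EGR1 did too (r = 0.78, exact p = 0.0221, adjusted p = 0.0344; rho = 0.71, exact p = 0.0576, adjusted p = 0.102), and leaving out the same libraries gave r = 0.87.

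FOSL2 (r = 0.93, exact p = 0.00104, adjusted p = 0.00366; rho = 0.74, exact p = 0.0458, adjusted p = 0.0867) and JUN (r = 0.81, exact p = 0.0141, adjusted p = 0.0236; rho = 0.52, exact p = 0.197, adjusted p = 0.262) also rose. Over the 6 remaining libraries their r was 0.73 and 0.75. JUND fell with the slope (r = -0.95, exact p = 0.00377, adjusted p = 0.00812; rho = -0.79, exact p = 0.0279, adjusted p = 0.0627), with -0.79 over the 6 remaining libraries. None of these rank correlations passed after adjustment. FOSB did not pass (r = 0.66, exact p = 0.0768, adjusted p = 0.102; rho = 0.31, exact p = 0.462, adjusted p = 0.525), and its r was -0.02 without the 2 libraries. FOSL1 had r = -0.21 (exact p = 0.613, adjusted p = 0.653; rho = -0.43, exact p = 0.299, adjusted p = 0.369; r = -0.63 without the 2) and JUNB had r = 0.42 (exact p = 0.300, adjusted p = 0.347; rho = 0.12, exact p = 0.793, adjusted p = 0.824; r = 0.41 without the 2).

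**Figure D4:**
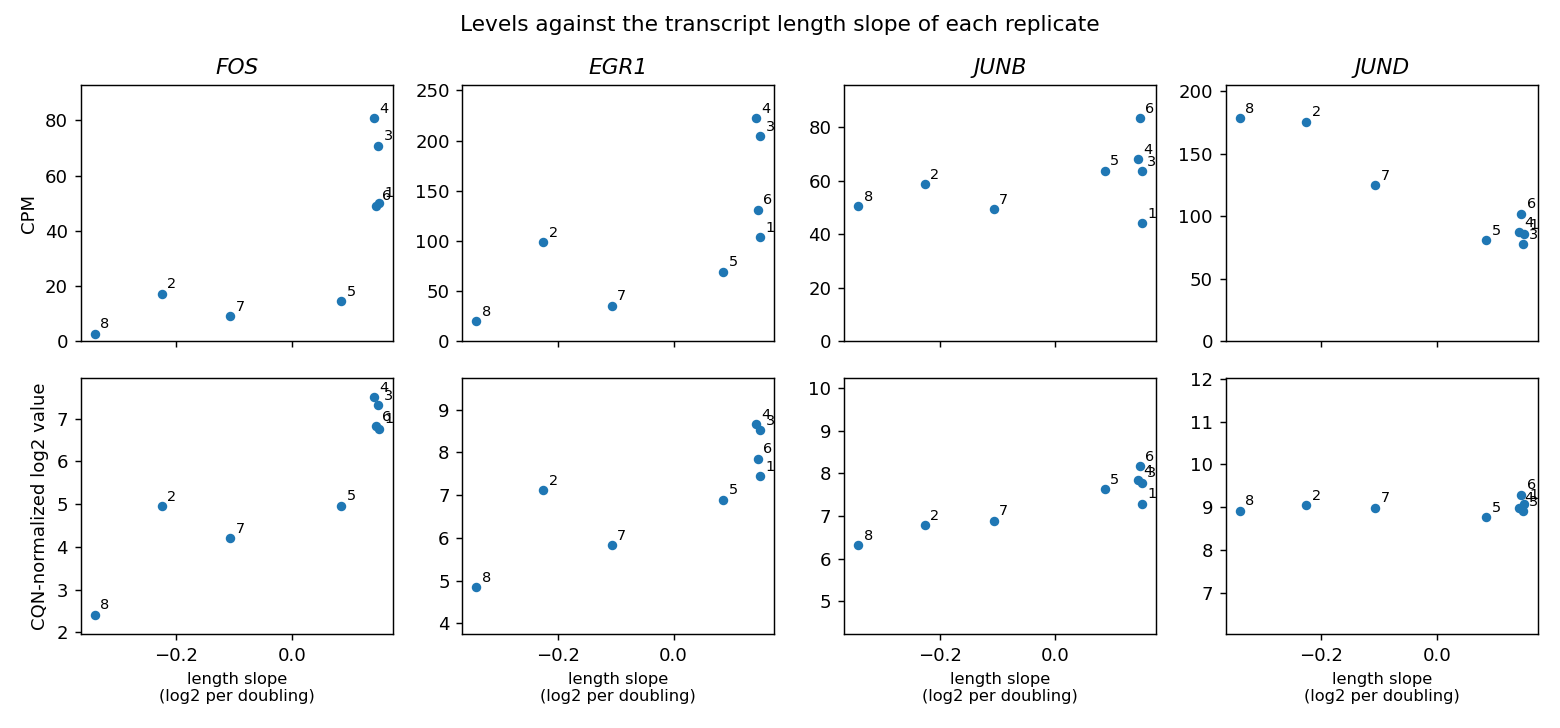
Levels of FOS, EGR1, JUNB and JUND against the length slope of each library (log2 per doubling of transcript length), as CPM (top, each axis from 0) and as CQN values (bottom, every axis spanning 6 log2 units); numbers are replicates. FOS and EGR1 are lowest in replicate 8 on both scales, JUND falls with the slope on CPM and is level on CQN values, and JUNB rises with it on CQN values.

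The relation to the slope changed with the scale for JUND, JUNB and FOSL1, and the cause was not tested. On CQN values JUND did not pass (r = 0.18, exact permutation p = 0.654, adjusted p = 0.738), and JUNB rose with the slope (r = 0.92, exact permutation p = 0.00169, adjusted p = 0.0136). FOS (r = 0.90, exact permutation p = 0.00179, adjusted p = 0.0139) and EGR1 (r = 0.82, exact permutation p = 0.0134, adjusted p = 0.0431) rose with it on both scales. So did FOSL2 (r = 0.97, exact permutation p = 0.00102, adjusted p = 0.0108) and JUN (r = 0.91, exact permutation p = 0.00231, adjusted p = 0.0154). On CQN values 5 of 8 members and 33.6% of all detected genes were called. FOSL1 went from r = -0.21 to r = 0.69 (exact permutation p = 0.0577, adjusted p = 0.118).

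**Figure D5:**
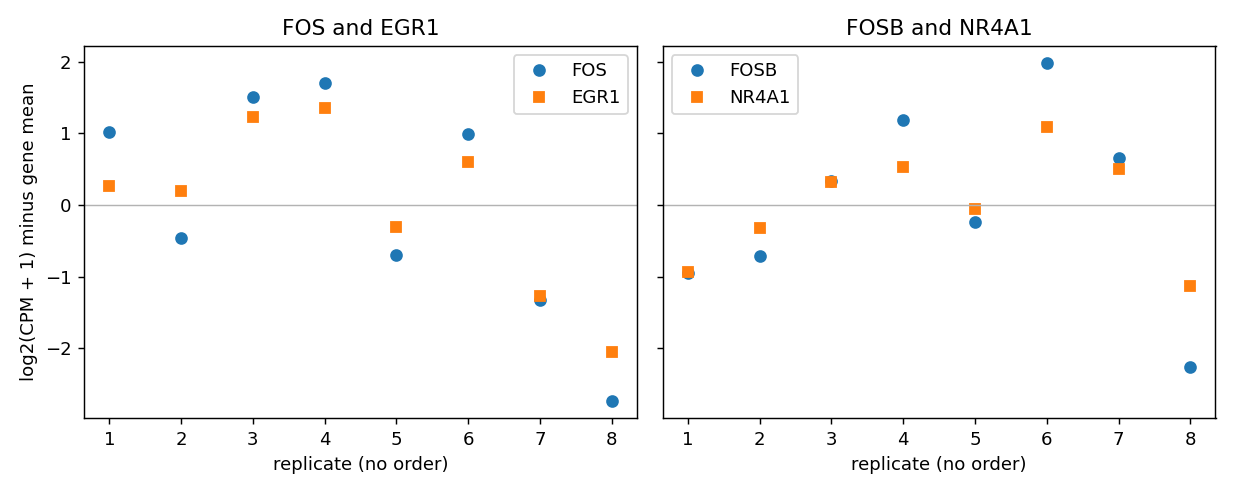
Deviation of log2(CPM + 1) from the gene mean in each of the 8 replicates, for FOS with EGR1 (left) and FOSB with NR4A1 (right); replicates have no order. FOS and EGR1 are both highest in replicate 4, FOSB and NR4A1 are both highest in replicate 6, and all 4 genes are lowest in replicate 8.

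Likeness of pattern was the root mean square difference of centred log2(CPM + 1), where 0 is identity, ranked over 11979 genes. Only genes of similar spread can be near on this measure, and FOS, FOSB and EGR1 were listed for their spread, so the ranks are a description. EGR1 was the gene nearest to FOS, and FOS the gene nearest to EGR1. EGR1 and FOS differed by 0.50, and the genes after EGR1 were SHPRH (0.70), GAS2L3 (0.72), NBEAL1 (0.73) and SLFN5 (0.74). After FOS, the genes most like EGR1 were SAMD9, VPS13C, NFKBIZ and DDX60 (0.61 to 0.62). On CQN values EGR1 and FOS were again each other's nearest gene, at 0.57. By Pearson's r on log2(CPM + 1), which ignores the size of the spread, JUN (r = 0.971) was slightly above FOS (r = 0.964) for EGR1. JUN ranked 702nd by the difference. On CQN values this order was reversed, with r = 0.970 for FOS and r = 0.957 for JUN.

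The nearest gene to FOSB was not a member but NR4A1, an orphan nuclear receptor and immediate early gene, at 0.59 on CPM and 0.52 on CQN values. NR4A1 ran from 4.16 CPM in replicate 8 to 22.8 CPM in replicate 6. After it came KLF4 (0.75), a flow-responsive Krüppel-like factor, BHLHE40 (0.81), ATF3 (0.84) and SPRY4 (0.84). On CQN values KLF4 was again next (0.77), while BHLHE40, ATF3 and SPRY4 were not among the 5 nearest. FOS ranked 3507th for FOSB, and FOSB ranked 1268th for FOS, at a difference of 1.17. On CQN values FOSB ranked 167th for FOS and FOS ranked 927th for FOSB, at 1.24. No test was made of these ranks.

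Of 28 other immediate early genes, 24 were detected and 5 were above the variation trend in edgeR's test, against 4.66% of all genes. The 5 were NR4A1 (adjusted p = 0.00143), KLF10, BTG2, KLF4 and NFKBIZ. The median range of the 24 was 2.21-fold, against 1.69-fold over all detected genes. KLF10, a TGF-beta-inducible repressor, ran from 53.3 CPM in replicate 8 to 225 CPM in replicate 6, and KLF4 ran from 11.4 CPM in replicate 8 to 52.4 CPM in replicate 6. NFKBIZ, a nuclear protein of the I-kappaB family, ran from 9.63 CPM in replicate 8 to 42.1 CPM in replicate 3. BTG2, an antiproliferative gene, had its highest value of 123 CPM in replicate 8.

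The most abundant genes of this list passed no such threshold. CTGF and CYR61, matricellular proteins induced by YAP and SRF, had 4931 ± 417 and 1762 ± 279 CPM, and KLF6 had 638 ± 179 CPM (SD, n = 8). IER2 and DUSP1 were picked after their values were seen. IER2, a nuclear immediate early protein, was highest in replicate 2 (285 CPM) and lowest in replicate 1 (124 CPM). DUSP1, a phosphatase that ends MAP kinase signals, ran from 164 to 385 CPM, highest in replicate 3. NR4A2, NR4A3, PTGS2 and ARC were not detected.

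The upstream kinases and activators were nearly all expressed. Of 17 MAP kinase pathway kinases 16 were detected, and 0 were above the trend in edgeR's test (3 at an unadjusted p under 0.05). Their median range was 1.72-fold. Over all detected genes, 4.66% were above the trend and 13.1% had an unadjusted p under 0.05 in the same test. RPS6KA2 had 134 ± 12.7 CPM and MAP2K1 114 ± 10.4 CPM (SD, n = 8). All 10 activators of the SRF, ELK and CREB class were detected, and 1 was above the trend, ELK3 (edgeR adjusted p = 0.00634). In edgeR's test 4 of the 10 had an unadjusted p under 0.05. ELK3, a ternary complex factor that partners SRF, ran from 25.1 CPM in replicate 8 to 103 CPM in replicate 3. SRF itself ran from 78.8 CPM in replicate 8 to 109.7 CPM in replicate 7. ELK4 had 122 ± 39.4 CPM and MKL2 88.8 ± 34.2 (SD, n = 8).

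The partners and brakes were expressed as well. Beside the counts below, 4.66% of all detected genes were above the trend in edgeR's test, and 13.1% had an unadjusted p under 0.05. Of 13 other AP-1 bZIP partners 10 were detected and 0 were above the trend in edgeR's test (3 unadjusted), led by ATF4 (321 ± 66.3 CPM), MAFF (80.2 ± 11.2) and ATF3 (59.6 ± 18.4). BATF and MAF were among those not detected. The EGR corepressors NAB1 (38.8 ± 8.01 CPM) and NAB2 (24.3 ± 6.87 CPM) were detected, neither above the trend at an adjusted or unadjusted p under 0.05 in edgeR's test, whereas EGR4 and WT1 were not detected. All 7 genes for proteins that bind AU-rich elements were detected, 0 above the trend in edgeR's test (0 unadjusted), led by HNRNPD (392 ± 26.9 CPM), KHSRP (295 ± 25.3) and ZFP36L2 (153 ± 21.6). All 8 genes for turnover of AP-1 proteins were detected, 0 above the trend in edgeR's test (3 unadjusted), led by GSK3B (123 ± 41.8 CPM), ITCH (106 ± 33.2) and UBE3A (98.4 ± 25.8).

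Known AP-1 and EGR1 targets peaked in different libraries. Of 17 AP-1 targets 14 were detected, and 3 were above the trend in edgeR's test: IL8 (adjusted p = 0.0293), CCND1 (adjusted p = 0.0240) and IL11 (adjusted p = 0.0336). In the same test 4 of the 14 had an unadjusted p under 0.05. Over all detected genes the adjusted and unadjusted shares were 4.66% and 13.1%. IL8, a neutrophil chemokine, was highest with FOS in replicate 4 (35.5 CPM) and lowest in replicate 8 (8.47 CPM). CCND1, the G1 cyclin, and IL11 were highest in replicate 7 (101 and 3.82 CPM), and both were lowest in replicate 2. In replicate 7 FOS was at 9.06 CPM and FOSL1 at 92.4 CPM, below its highest value of 97.4 CPM in replicate 5. A relation of targets to members was not tested. Among the abundant targets were HMGA1 (590 ± 98.1 CPM) and CD44 (248 ± 76.5 CPM). MMP3, MMP9 and MMP10, matrix metalloproteinases, were not detected. Of 9 EGR1 targets 8 were detected and 0 were above the trend in edgeR's test (2 unadjusted). THBS1 was at 3708 ± 1293 CPM (highest in replicate 6), FGF2 at 177 ± 59.7 (replicate 3) and TGFB1 at 135 ± 42.3 (replicate 8).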

How the data were processed

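Poly(A) RNA of 8 hCMEC/D3 replicates was sequenced from libraries made with the TruSeq RNA kit v2, per the labels' protocols. The submitters' processing notes name CASAVA 1.9, TopHat2 2.0.6, HTSeq and hg19; their roles, settings and the gene annotation are not given in the sources used here. The deposited table holds raw counts per gene and CQN (conditional quantile normalization) values, per the file headers; the deposited CQN values were read as log2, a scale inferred from their range. The members and lists were chosen with earlier results of these data known.

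CPM used TMM-scaled totals (edgeR 4.0.16, R 4.3.3). Detected meant at least 1 CPM in all 8 libraries (11980 genes). Ranges and levels were taken as log2 with a pseudocount of 0.1, and highest over lowest CPM without one. CPM per kilobase used the canonical transcript of GENCODE lifted to GRCh37 (21443 of 23346 genes had a length), and sequences came from GRCh37. Variation was tested with edgeR's goodness-of-fit test of an intercept-only model, adjusted over all detected genes (Benjamini-Hochberg); on simulated counts of 11841 genes it called 180 of 200 genes raised 4-fold in 1 library and 2 unchanged genes. Neighbours in level were compared by exact sign-flip tests (256 patterns), adjusted over 9 pairs, and the slope relation by exact permutation (40320 pairings). The slope relation had been planned with adjustment over the members and was adjusted over all detected genes instead. The count of members past 4-fold was limited to detected genes after values were seen. Motif searches, the second EGR2 window and the ATTTA counts were chosen after values were seen. Exact Poisson intervals (95%) cover counting error only. Named were all members, the 3 most abundant and any gene above the trend in each list, and the 5 genes most like FOS, FOSB and EGR1; some genes that this rule names are not reported here.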

Additional observations from a re-analysis of the deposited data

How the results depend on the processing

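The order of levels depended on the scale. Of 9 neighbour pairs 0 passed on CPM per kilobase, with 0 to 0 when each replicate was left out (7 libraries give an exact permutation p of 0.0156 at the lowest, which says little about stability), but 3 passed on CPM without length scaling and 3 on CQN values. JUNB over EGR1 turned to -0.54 on CPM, to -0.032 without replicate 8 (-0.032 to 0.40 over the left-out replicates) and to -0.30 without replicates 2, 7 and 8 (log2). EGR1 over FOSL2 turned to -0.52 on CPM and -0.29 on CQN values, JUN over JUND to -0.0022 and FOSL1 over JUNB to -0.058 on CQN values. On CQN values the relation to the length slope turned for FOSL1 (r = 0.69) and JUND (r = 0.18). The cause was not tested. The count of members above the variation trend was 3 under each left-out replicate and 5 without replicates 2, 7 and 8, a setting chosen after seeing the data that adds FOSL1 and JUNB while 297 of 12275 genes (2.42%) in place of 558 of 11980 were called. With no filter beyond a count in any library it was 4, adding EGR3. No pairing between conditions was possible because all libraries belong to 1 group. Without replicate 8 the log2 ranges of FOS, FOSB and EGR1 were 3.14, 3.05 and 2.65, in place of 4.82, 4.55 and 3.46. Depth limited EGR2 and EGR3, with 1 to 40 read pairs per library.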

Other observations

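The ratio of FOS to FOSB, per kilobase, was picked after the values were seen. It ran from 9.14 in replicate 1 to 0.504 in replicate 7, and FOS was the higher of the pair in 7 of 8 libraries (mean log2 ratio 1.08 ± 1.30, exact sign-flip permutation p = 0.0547). On CQN values FOS was higher in 6 of 8 (0.79 ± 1.33, exact sign-flip permutation p = 0.133). Replicates 6 and 7, at 1.07 and 0.504, had the lowest ratios.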
